A study of Mus musculus with 24 samples.

Results

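Potassium channel genes were examined in the hippocampus of newborn mice given morphine under stress. The members are the 90 genes whose name on the array is a Kcn symbol (a family letter code and a number), other than Kcne2 and Kcnj13, which are counted here with the choroid plexus genes. They are measured by 129 of the 55681 non-control probes, out of 36163 gene names, and all 90 symbols are found in the RefSeq gene table. Members were matched by gene name, and the exclusion of that pair was made with earlier results of these data known. In MS5 against Con the log2 fold change was -1.72 for Kcne2 (unadjusted p = 0.0275) and -1.56 for Kcnj13 (unadjusted p = 0.00431), with a limma adjusted p of 1 for each, and in MS2 against Con -0.11 and -0.39. All counts below leave them out. From these same samples the study listed a Reactome potassium channel gene set among those raised in MS5 against Con. A direction of these genes above 0 here is therefore not independent evidence.

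The animals were C57BL/6 pups, all described as male, killed on postnatal day 9. MS5 replicate 9 went against that description of sex, as given below. Con pups were left untreated with the dam. MS2 and MS5 pups were treated from postnatal day 5 with subcutaneous morphine at 2 or 5 mg/kg, together with separation from the dam in warmed cups and apnea made with nitrogen followed by oxygen, and went back to the home cage with control littermates. No group had morphine without stress or stress without morphine, so every comparison with Con spans the drug and the stress protocol, and only MS5 against MS2 compares doses. Each array held RNA of the pooled left and right hippocampi of 1 animal. Each group had 5 arrays, 15 in all, spread over 2 slides, and litters are not given in the labels.

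Potassium channels let potassium ions leave a cell and so set the resting potential, end action potentials and limit repetitive firing. Voltage-gated (Kv) channels open on depolarization, inwardly rectifying (Kir) channels pass current near rest, K2P channels carry leak current, and another class opens with intracellular calcium or sodium. The GIRK channels, built from Kcnj3, Kcnj5, Kcnj6 and Kcnj9 subunits, are opened by G protein βγ subunits released when inhibitory receptors such as the μ-opioid receptor are activated, and are a classical route by which morphine hyperpolarizes neurons. The members fall into 14 Kir genes (18 probes), 30 pore-forming Kv genes (50 probes), 10 silent Kv modifier genes (13 probes), 14 K2P genes (15 probes), 8 calcium- or sodium-activated genes (12 probes) and 14 auxiliary subunit genes (21 probes).

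The probes are 60 bases long, and a probe reports only the transcripts that carry its bases. A stretch of 30 bases is shown for each GIRK probe, whose level decides the opioid-coupled results, and for the Kcnq1, Kcnd3 and Kcnip3 probes, which passed the unadjusted threshold. Capitals mark the longest run of bases that the probe shares with a probe of any other potassium channel gene on the array. That run was 8 to 11 bases of 60, and Kcnj9 shared 11 with Kcnj16. Sequences and positions, in mm9, are those in the deposited scanner files. Where each probe lies relative to exons and untranslated regions was not analysed here.
Kcnj3, first probe (A_52_P560006, chr2:55447862-55447891, plus strand): tttggcTGATAAGAtaatcctccctatgaa
Kcnj3, second probe (A_55_P2159685, chr2:55290243-55290272, plus strand): tcatgttccgGGTGGGCAAcctgcgcaaca
Kcnj6 (A_52_P191086, chr16:95054003-95054032, minus strand): gtgtcACCATTGAttattagccatgaaatt
Kcnj9 (A_51_P511285, chr1:174252224-174252253, minus strand): ggccatggagagACTTAATAAAGggtttta
Kcnj5 (A_55_P2163961, chr9:32122425-32122454, minus strand): aggtttctatCGTGGTGACCtaagtgtgag
Kcnq1 (A_55_P2086203, chr7:150612915-150612944, plus strand): acttttccaaATAAAGTTGGgacgtcccag
Kcnd3 (A_55_P1965488, chr3:105471938-105471967, plus strand): taattTGAAAGCAGAcgatggactgagacc
Kcnip3 (A_55_P2371237, chr2:127307742-127307771, minus strand): ttcggcatcttggaacccaTGTCCATGGAA

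The signal was usable for most members. Of the 129 probes, 106 (82.2%) were called well above background on all 15 arrays, against 65.2% of all probes, and 118 were so on every array of at least 1 group. Only 4 probes, for Kcnj1, Kcnk18, Kcne1 and Kcnj15, were well above background on no array, and none was saturated. The median spot signal per array was 121 to 154, except on MS2 replicate 5 at 58.2, and 67.1% to 79.0% of spots were well above background. The median SD within a group was 0.13 in Con, 0.20 in MS2 and 0.16 in MS5 on the log2 scale, and 0.13 in MS2 without replicate 4.

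Some arrays stood apart from their labels by marker genes of tissue or sex. MS2 replicate 4 went against its hippocampal label. The mean of 7 principal neuron markers was 10.10 there and 11.82 to 12.34 on the other arrays, with Neurod6 at 10.02, Camk2a at 9.07 and Slc17a7 at 9.38. The mean of 6 hypothalamus and thalamus markers was 11.18 there, with the hypothalamic peptide genes Pmch at 13.33 and Hcrt at 12.31, and 7.21 to 8.19 in Con. The mean of the same 6 markers was 9.26, 9.43 and 9.54 on MS5 replicates 12, 14 and 8. Of the 6, 3 (Avp, Oxt and Trh) were higher in MS5 at an unadjusted p under 0.05. Hcrt was at 7.99 to 8.18 in MS5 and 7.92 to 8.13 in Con. MS5 replicate 9, labelled male, had the female transcript Xist at 11.34, and the other 14 arrays were at 5.89 to 6.08. All 13 genes of the choroid plexus list, which holds Kcne2 and Kcnj13, had means below Con in MS5, 11 of them at an unadjusted p under 0.05, with means of 9.50 and 8.54 on MS5 replicates 9 and 14 and 11.21 to 12.15 in Con. In bulk tissue, fewer cells of a type and less RNA per cell cannot be told apart. The part of these differences in the results was not tested, and the counts are given below with and without the arrays that went against their labels, MS2 replicate 4 and MS5 replicate 9.

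The opioid-coupled GIRK subunits did not pass the test in any comparison of the 15 arrays, and the arrays of the 3 groups overlapped for each of their 5 probes. Kcnj3 encodes GIRK1, the subunit that most neuronal GIRK channels contain. On its first probe the Con arrays read 8.06, 8.27, 8.40, 8.51 and 8.60 (log2 values, mean 8.37 ± 0.21, SD, n = 5). The MS2 arrays read 7.81, 8.14, 8.42, 8.64 and 8.68 (8.34 ± 0.37, SD, n = 5), and the MS5 arrays 8.11, 8.11, 8.31, 8.59 and 8.62 (8.35 ± 0.25, SD, n = 5). The groups covered the same range, and the lowest value of all belonged to MS2 replicate 4. The log2 fold change was -0.03 ± 0.16 (SE) in MS2 against Con, with a 95% interval of -0.38 to 0.32, and -0.02 ± 0.16 in MS5 against Con, with an interval of -0.37 to 0.33. The limma adjusted p-values were 0.997 and 1, and the two-sided exact permutation p-values 0.873 and 0.913 (5 against 5, for which the smallest p is 0.00794).

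The second Kcnj3 probe was more scattered. Its Con arrays read 7.52, 8.19, 8.22, 8.30 and 8.86, its MS2 arrays 7.89, 7.90, 8.78, 8.80 and 8.99, and its MS5 arrays 8.05, 8.18, 8.24, 8.37 and 8.64. Most MS2 values lay above all MS5 values, and those of MS2 replicates 4 and 5 lay below them. The log2 fold change was 0.25 ± 0.25 in MS2, with a 95% interval of -0.28 to 0.79, and 0.08 ± 0.25 in MS5, with an interval of -0.45 to 0.61. The exact permutation p-values were 0.437 and 0.794.

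Kcnj6 encodes GIRK2, the subunit that carries channels to the neuronal surface. Its Con arrays read 7.89, 8.19, 8.34, 8.46 and 8.47 (8.27 ± 0.24, SD, n = 5), its MS2 arrays 8.04, 8.07, 8.32, 8.37 and 8.50 (8.26 ± 0.20) and its MS5 arrays 8.07, 8.23, 8.28, 8.29 and 8.30 (8.23 ± 0.10). The MS5 arrays lay inside the Con range. The log2 fold changes were -0.01 ± 0.11 in MS2 and -0.04 ± 0.11 in MS5, with 95% intervals of -0.25 to 0.23 and -0.27 to 0.20, and exact permutation p-values of 0.984 and 0.738.

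Kcnj9 encodes GIRK3, a subunit that pairs with the others and alters their traffic. Its Con arrays read 9.59, 9.81, 10.25, 10.27 and 10.30 (10.04 ± 0.32, SD, n = 5), its MS2 arrays 9.97, 10.04, 10.22, 10.46 and 10.72 (10.28 ± 0.31) and its MS5 arrays 9.44, 10.04, 10.05, 10.46 and 10.59 (10.12 ± 0.45). The MS5 arrays held the lowest value and spanned almost the whole range. The log2 fold changes were 0.24 ± 0.21 in MS2 and 0.07 ± 0.21 in MS5, with 95% intervals of -0.22 to 0.69 and -0.38 to 0.53, and exact permutation p-values of 0.286 and 0.786.

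Kcnj5 encodes GIRK4, best known as the partner of GIRK1 in the heart. Its Con arrays read 8.05 to 8.43 (8.25 ± 0.15, SD, n = 5) and its MS5 arrays 8.16, 8.23, 8.59, 8.65 and 8.68 (8.46 ± 0.25). MS2 replicate 4 read 9.59 and the other MS2 arrays 8.22, 8.26, 8.29 and 8.44. The MS2 mean of 8.56 ± 0.58 was set by 1 array: the log2 fold change of 0.32 ± 0.22 (exact permutation p = 0.262) became 0.06 ± 0.11 without MS2 replicate 4. In MS5 against Con it was 0.22 ± 0.22 (exact permutation p = 0.127). The groups share 1 estimate of the spread, so MS2 replicate 4 widens this SE too. With 1 array left out at a time this difference was 0.16 to 0.29, and the lowest unadjusted limma p was 0.0593. Without MS2 replicate 4 and MS5 replicate 9 together, Kcnj5 was among the members at an unadjusted p under 0.05, as given below.

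**Figure D1:**
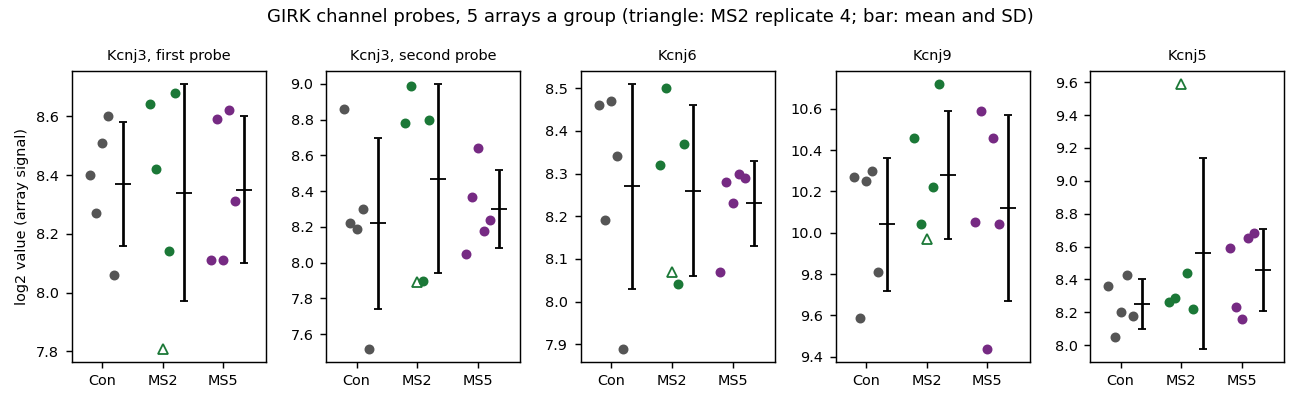
The log2 value of each GIRK probe (vertical axis) on each of the 15 arrays, by group (points), with the group mean and SD (n = 5) as a black bar; the open triangle is MS2 replicate 4. The 3 groups overlap in every panel, and the triangle at 9.59 stands alone above the Kcnj5 values.

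Between the doses, the GIRK probes differed by -0.17 ± 0.25 (Kcnj3, second probe), -0.17 ± 0.21 (Kcnj9), -0.10 ± 0.22 (Kcnj5), -0.03 ± 0.11 (Kcnj6) and 0.01 ± 0.16 (Kcnj3, first probe) in log2 fold change of MS5 over MS2, and all limma adjusted p-values were 1. For the Kcnj3 and Kcnj6 probes and for Kcnj9, the sign of the MS5 difference from Con was not the same on the 2 slides. On slide 1 it was -0.14 and -0.33 for the Kcnj3 probes and -0.24 for Kcnj6, and on slide 2 it was 0.17, 0.55 and 0.23. For Kcnj9 these values were -0.02 and 0.33. Kcnj5 was above 0 on both, at 0.29 and 0.24.

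Across all members, the number of probes at an unadjusted p under 0.05 was at or below the share of all probes. In MS2 against Con, 2 of 129 were higher and 1 was lower, against 2.05% and 2.12% of all probes. In MS5 against Con, 1 was higher and 1 was lower, against 1.47% and 2.43%. In MS5 against MS2, 0 were higher and 1 was lower, against 1.72% and 2.25%. No member differed by over 1.5-fold at that p in any of the 3 comparisons, and 0.0233%, 0.228% and 0.129% of all probes did. No probe of any gene, member or not, had a limma adjusted p under 0.05 (0% in each), and the smallest adjusted p among members was 0.97, 1 and 1. The 2 groups' arrays did not overlap for 0, 0 and 1 members, against 0.702%, 0.828% and 0.621% of all probes.

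The precision was enough to bound the difference in array value for most probes. The 95% interval of the fold change lay wholly within 1.5-fold of no difference for 106 (82.2%), 110 (85.3%) and 113 (87.6%) of the 129 probes in MS2 against Con, MS5 against Con and MS5 against MS2. The interval reached a median of 0.23 to either side of the log2 fold change in each. These counts include probes near the floor, among them the 4 that were well above background on no array. A narrow interval there does not bound a change in expression. Counts over the detected probes alone are not given here. The median log2 fold change over the members was 0.023, 0.026 and 0.011, beside -0.002, 0 and 0.001 over all probes, and 74, 83 and 71 of the 129 values were above 0. The first pair of comparisons shares the Con arrays, so their values do not support each other.

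**Figure D2:**
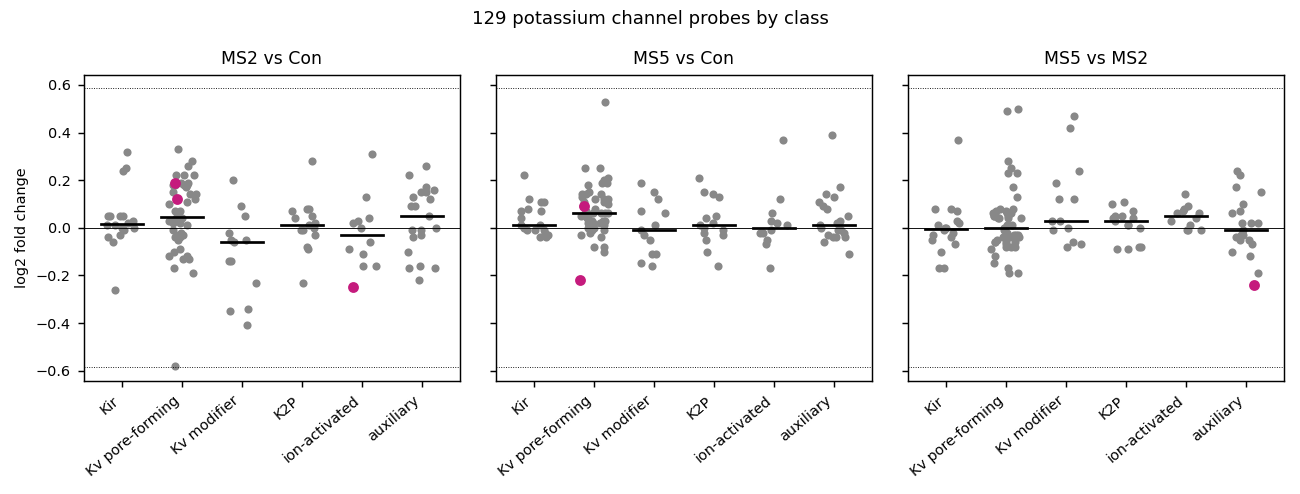
The log2 fold change (vertical axis) of each of the 129 probes in each comparison, by channel class; black bars are class medians, pink points have an unadjusted limma p under 0.05, and dotted lines mark 1.5-fold. No point lies past the dotted lines, and 41 of the 50 pore-forming Kv points lie above 0 in MS5 against Con.

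No other Kir probe passed the test. Among the KATP pore subunits, which close when ATP is plentiful, Kcnj8 was 8.37, 8.38 and 8.36 and Kcnj11 was 8.99, 8.99 and 8.95 in Con, MS2 and MS5 on the main probe of each. Kcnj10, the Kir4.1 channel by which astrocytes take up potassium, was 14.01, 14.03 and 14.05. Its partner Kcnj16 differed from Con by 0.05 in MS2 and 0.12 in MS5 (unadjusted p = 0.0907 for MS5). Over the 18 Kir probes, 0 passed in limma at an unadjusted p under 0.05 in any comparison, and the median log2 fold change was 0.01, 0.01 and 0.00. Kcnj4, a strong inward rectifier of forebrain neurons, had the widest MS5 against MS2 difference of the class, 0.37 (unadjusted p = 0.447), with MS2 replicate 4 at 10.20 and the other 14 arrays at 12.48 to 13.67.

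Among the pore-forming Kv channels, Kcnd3 encodes Kv4.3, an A-type channel that delays firing. Its probe A_55_P1965488 read 6.68, 6.70, 6.88, 6.97 and 7.0 in Con, 6.92, 6.92, 6.98, 7.15 and 7.21 in MS2, and 6.75 to 6.96 in MS5. The groups overlapped. The MS2 difference was 0.19 ± 0.08 (1.14-fold, unadjusted p = 0.0245, limma adjusted p = 0.97, exact permutation p = 0.0873), and it no longer passed without Con replicate 16 or 19 or MS2 replicate 3 or 4 (unadjusted p of 0.0588 to 0.0730). The main Kcnd3 probe differed by 0.07 ± 0.10.

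Kcnq1, the Kv7 channel known from the heart and inner ear, was lower in MS5. The Con arrays read 8.22, 8.30, 8.33, 8.35 and 8.61 and the MS5 arrays 8.01, 8.09, 8.16, 8.20 and 8.23, and MS2 overlapped both at 8.11 to 8.37. Only 1 Con array lay inside the MS5 range. The log2 fold change was -0.22 ± 0.07 (0.857-fold, 95% interval -0.38 to -0.06, unadjusted p = 0.00921, limma adjusted p = 1, exact permutation p = 0.0159). It was -0.26 to -0.16 with each array left out in turn and kept an unadjusted p under 0.05 throughout, and it was -0.24 and -0.15 within slides 1 and 2.

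Over the 50 pore-forming Kv probes, the log2 fold change was above 0 for 33 in MS2 and for 41 (82.0%) in MS5 against Con, where 50.2% of all probes were above 0. The class median in MS5 was 0.059. In MS2 the number was 29 without MS2 replicate 4, and it was 22 and 38 within slides 1 and 2, with medians of -0.018 and 0.13. In MS5, with any 1 Con or MS5 array left out, 36 to 43 of the 50 were above 0, and within slides 1 and 2 the number was 30 and 37, with medians of 0.032 and 0.073. Probes on the same arrays are not independent and no test was made of this count. The widest value was Kcna5, a delayed rectifier, whose probe A_52_P58283 read 6.77, 6.99, 7.11, 7.16 and 8.01 in Con and 7.26, 7.29, 7.80, 8.02 and 8.32 in MS5, a log2 difference of 0.53 (unadjusted p = 0.0681) that overlapped on the Con replicate 19 array. The main Kcna5 probe A_55_P2106891 differed by 0.11 (unadjusted p = 0.568).

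**Figure D3:**
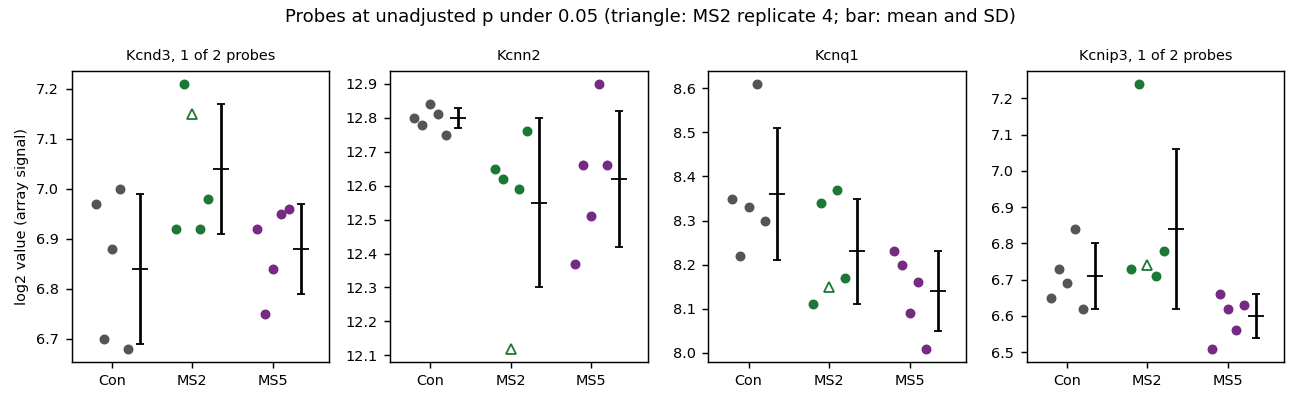
The log2 value (vertical axis) of 4 probes that had an unadjusted p under 0.05 in a comparison, on the 15 arrays by group (points), with the group mean and SD (n = 5) as a black bar; the open triangle is MS2 replicate 4. Only the Kcnip3 probe has groups that do not overlap, MS5 against MS2.

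The modifier subunits, which form no channel alone and tune Kv2 channels, had 10 of 13 values below 0 in MS2 against Con, with a median of -0.06, and none passed. The widest were Kcng1 at -0.41 ± 0.42, Kcnv1 at -0.35 and the Kcng2 probe A_55_P2005335 at -0.34, and without MS2 replicate 4 these were 0.12, -0.01 and -0.05. The main Kcng2 probe A_66_P109002 was at 0.09. Among the auxiliary subunits, Kcnip3 encodes a calcium sensor that joins Kv4 channels and, as DREAM, represses transcription of prodynorphin. Its probe A_55_P2371237 read 6.71, 6.73, 6.74, 6.78 and 7.24 in MS2 and 6.51, 6.56, 6.62, 6.63 and 6.66 in MS5, and Con overlapped both at 6.62 to 6.84. All 5 MS5 arrays were below all 5 MS2 arrays. The difference was -0.24 ± 0.09 (0.845-fold, 95% interval -0.43 to -0.06, unadjusted p = 0.0131, limma adjusted p = 1, exact permutation p = 0.00794), and it was -0.14 without MS2 replicate 3. The main Kcnip3 probe went the other way, by 0.07 ± 0.08. The other auxiliary probes, of Kvβ, KChIP, MinK-related and BK β subunits, had 0 that passed.

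K2P leak channels had no probe that passed. Kcnk2, Kcnk3 and Kcnk9, which carry leak current, differed from Con by 0.14, 0.21 and 0.05 in MS5. Among the calcium- and sodium-activated channels, Kcnn2 encodes the SK2 channel behind the afterhyperpolarization of pyramidal neurons. Its Con arrays read 12.75, 12.78, 12.80, 12.81 and 12.84, its MS2 arrays 12.12, 12.59, 12.62, 12.65 and 12.76, and its MS5 arrays 12.37, 12.51, 12.66, 12.66 and 12.90. All but 1 MS2 array lay below every Con array. The MS2 difference was -0.25 ± 0.11 (0.842-fold, unadjusted p = 0.0384, limma adjusted p = 0.97, exact permutation p = 0.0159), and the lowest array was MS2 replicate 4. Without it the difference was -0.14 (unadjusted p = 0.104). With the 10 spots of this probe averaged in place of the first spot it was -0.23 (unadjusted p = 0.0763), and the p was also over 0.05 without Con replicates 15 to 18. Kcnma1, the BK channel, differed by 0.03 on its main probe in both treated groups. Kcnt1, a sodium-activated channel, read 10.54 to 11.22 in Con and 10.77 to 11.68 in MS5, a difference of 0.37 (unadjusted p = 0.0739).

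Of the 23 genes fixed around GIRK channels (opioid, GABA-B, adenosine and serotonin receptors, G protein subunits, RGS proteins and partners), 1 was higher and 2 were lower in MS2, 2 were higher in MS5, and 1 was higher in MS5 than in MS2, each at an unadjusted p under 0.05 and with limma adjusted p-values of 0.97 to 1. Over all probes the shares were 2.05% and 2.12% in MS2, 1.47% higher in MS5 and 1.72% higher in MS5 than in MS2. Gabbr2, a GABA-B receptor subunit, was 0.43 higher in MS2 than in Con (unadjusted p = 0.0099, exact permutation p = 0.0476), with Con at 10.09 to 11.06 and MS2 at 10.66 to 11.17. Gnb5, a Gβ subunit that partners RGS proteins, had a log2 fold change of -0.23 in MS2 against Con and was 0.24 higher in MS5 than in MS2, and Gnai3, an inhibitory Gα subunit, had one of -0.21 in MS2. Oprd1, the δ-opioid receptor, was 0.19 higher in MS5 (exact permutation p = 0.0476), and Rgs4, which shortens G protein signals, was 0.33 higher (exact permutation p = 0.0556). In fits that left out 1 array, Gabbr2 kept its unadjusted p under 0.05 in 11 of 11, Oprd1 in 7 of 11, Gnai3 and Rgs4 in 5 of 11, and Gnb5 in 3 of 11 in MS2 against Con and in 4 of 10 in MS5 against MS2. Oprm1, the μ-opioid receptor, had log2 fold changes of 0.17 and 0.15 in MS2 and MS5 against Con, with unadjusted p-values of 0.162 and 0.22, on a probe with a mean level of 16.16. Each list gene was read on its main probe only. Oprm1 and Rgs4 have 2 probes each and Gabbr2 has 3, and their other probes are not given here. None of the 2 KATP partner genes, 11 Kv partner genes and 4 Hcn genes passed in any comparison.

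MS2 replicate 4 held the outermost value of the 15 arrays for 63 of the 129 members (48.8%), above all others for 31 and below for 32, and for 30.2% of all probes. On the other arrays the number was 5 to 24. The genes named here were chosen after their values were seen, as the 8 main probes farthest below and the 8 farthest above the median of the other 14 arrays. Kcnh3, a forebrain Elk-type Kv channel, read 10.93 on that array and 13.87 to 14.49 on the others. Kcng1 read 9.03 against 11.26 to 12.08, Kcnip2 8.64 against 10.17 to 10.84, and Kcnv1 8.62 against 10.08 to 10.80. Kcnj4, Kcnq5, Kcnmb4 and Kcnk12 had differences from the median of -2.77, -1.13, -1.12 and -0.89. On the high side, Kcnh8 read 9.29 against 7.68 to 8.49, Kcnh2 9.86 against 8.21 to 9.06, Kcnk3 10.71 against 9.20 to 9.87 and Kcnip1 11.15 against 9.94 to 10.43. Kcnc4, Kcnj5, Kcna3 and Kcne4 were above the median by 1.2, 1.32, 0.84 and 1.61, and Kcne4 was higher still on MS5 replicate 8, at 8.33. The wide MS2 SDs of these genes, up to 1.53 for Kcnh3, came with this array: with it left out, the Kcnh3 difference from Con moved from -0.58 to 0.10.

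**Figure D4:**
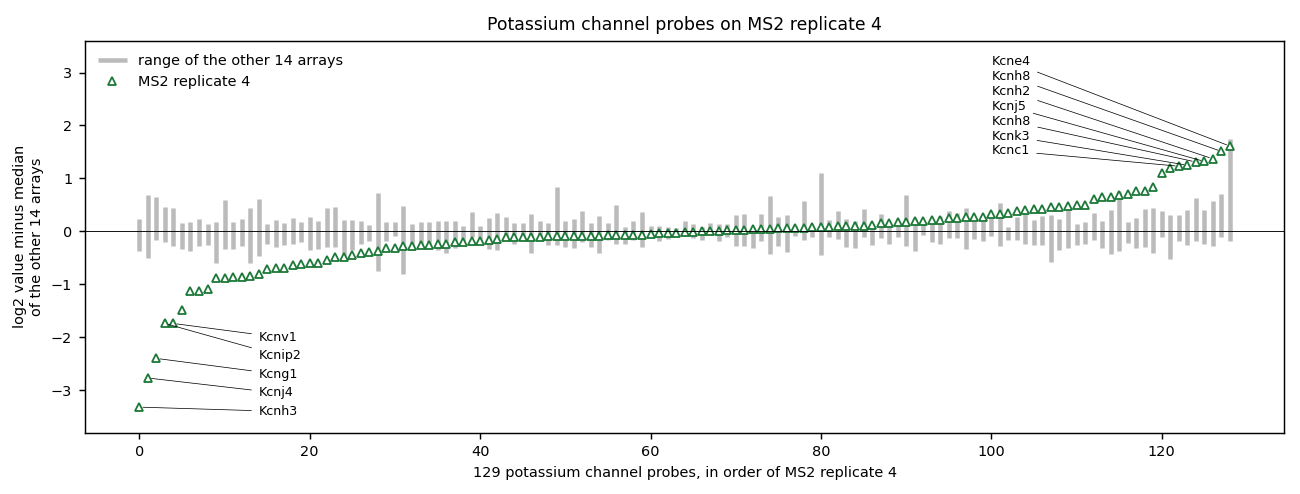
Each of the 129 probes in order along the horizontal axis, with the log2 value on MS2 replicate 4 minus the median of the other 14 arrays (triangles, vertical axis) and the range of those 14 arrays (grey bars). The triangles leave the grey bars at both ends, from -3.32 for Kcnh3 to 1.61 for Kcne4, where MS5 replicate 8 reaches higher.

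Leaving out the arrays in doubt raised most of these counts. All groups share 1 estimate of the spread, so leaving out an MS2 array also alters the test of MS5 against Con. Without MS2 replicate 4, MS2 against Con had 2 members higher and 0 lower (2.26% and 1.75% of all probes), Kcnk6 among the higher, and 1 member did not overlap (1.44%). MS5 against Con had 6 higher and 2 lower (2.47% and 3.45%), and MS5 against MS2 had 4 higher and 1 lower (2.98% and 3.8%), with 1 member not overlapping (2.14%). Without MS5 replicate 9, MS5 against Con had 3 higher and 1 lower (1.34% and 1.92%) with 2 not overlapping (1.44%), and MS5 against MS2 had 2 higher and 1 lower (1.17% and 1.59%) with 1 not overlapping (1.05%). The Kcna5 probe A_52_P58283 was then the only member past 1.5-fold, in both comparisons (0.189% and 0.07% of all probes), and the main Kcna5 probe A_55_P2106891 differed by 0.06 and 0.19. Without both arrays, MS5 against Con had 10 higher and 2 lower (2.65% and 3.05%) with 2 not overlapping (1.44%), and MS5 against MS2 had 6 higher and 5 lower (2.61% and 3.23%) with 4 not overlapping (3.36%). In every one of these fits 0% of probes had a limma adjusted p under 0.05, and the smallest member value was 0.376.

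That smallest value belonged to the MS5 against Con difference of Kcnc1, which encodes Kv3.1, a channel of fast-spiking neurons, and it was picked out after the values were seen. Its probe A_52_P867058 read 9.32, 9.34, 9.39, 9.55 and 9.56 in Con, 9.34, 9.43, 9.47, 9.59 and, on replicate 4, 10.74 in MS2, and 9.43, 9.68, 9.73, 9.75 and 9.82 in MS5, where the 9.43 was replicate 9. With all arrays the MS5 difference was 0.25 (unadjusted p = 0.241, exact permutation p = 0.0317), and without MS2 replicate 4 and MS5 replicate 9 it was 0.31 ± 0.06 (unadjusted p = 0.00028, limma adjusted p = 0.376, exact permutation p = 0.00794). The other Kcnc1 probes differed by 0.10 and 0.02 with all arrays. The same comparison held Kcnab3, Kcnh6, Kcnt1, Kcnj5, Kcnk2, Kcna5, Kcnh2 and a pair of Kcnh8 probes among the higher and Kcnq1 and Kcnn2 among the lower. Of these, Kcnc1, Kcnh8, Kcnh2 and Kcnj5 were also far above the other arrays on MS2 replicate 4. The groups share 1 estimate of the spread, so leaving out that array lowers the p of such probes in MS5 against Con. For the Kcnc1 probe the SE went from 0.2 with all arrays to 0.06. The overlap can follow from the fit in this way, and no conclusion is drawn from it. The mean of the hypothalamus and thalamus markers was higher on MS5 replicates 8, 12 and 14 than in Con, as given above. Singly, Avp and Oxt were above every Con array on each of these arrays. Trh, Tcf7l2 and Pmch were so on only some of them, and Hcrt on none. The part of those markers in the result was not tested.

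**Figure D5:**
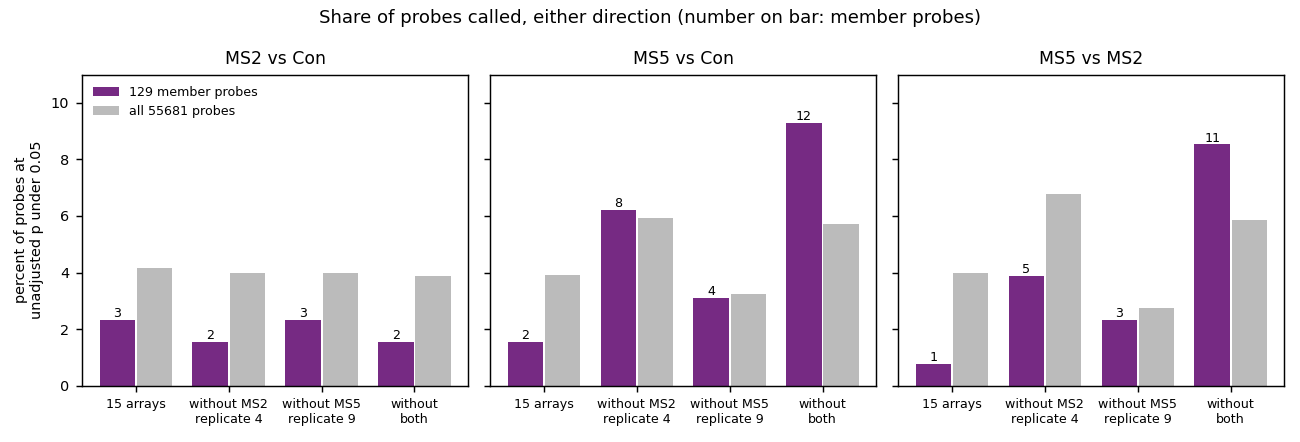
The percent of probes (vertical axis, from 0) at an unadjusted limma p under 0.05 in either direction, for the 129 member probes (purple, with their number on the bar) and all 55681 probes (grey), with all arrays and with the arrays in doubt left out. With 15 arrays the purple bars are below the grey in each comparison, and without both arrays they are above it in MS5 against Con (12 probes) and MS5 against MS2 (11 probes).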

How the data were processed

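RNA of the 15 hippocampi was hybridized by the authors to 1-color Agilent mouse arrays and read with Feature Extraction 10.7.1.1. The deposited series table holds log2 values that the authors made with normexp background correction and quantile normalization; rebuilding them from the deposited scanner intensity columns (mean signal and local background, offset 50, first spot of each probe) gave the same values within 5.0e-09. The log2 values were used as deposited. Groups were compared in 1 limma model (limma 3.58.1, R 4.3.3) over all 55681 non-control probes with Benjamini-Hochberg adjustment, and single probes also by a two-sided exact permutation test of group means. The arrays' number, 5 a group, limits the precision. Each array is taken as 1 animal.

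The members, lists and tests were chosen with earlier results of these data known. Named were the Kcnj3, Kcnj5, Kcnj6 and Kcnj9 probes, members at an unadjusted p under 0.05 (up to 8 in each direction), past 1.5-fold or not overlapping, and list genes at that p; a gene's main probe has the highest mean. Tests were checked on simulated data. Other values, filters, slide terms, array weights and array subsets were tried as alternatives. The miRNA arrays were not used. Marker lists covered choroid plexus, principal neurons, hypothalamus and thalamus, and Xist, given with the results. Lists of GABAergic interneurons, astrocytes, oligodendrocytes and microglia had 0 genes that passed in any comparison. Single arrays differed all the same. The oligodendrocyte mean was 12.39, 12.43 and 12.54 on Con replicate 19, MS2 replicate 4 and MS5 replicate 8, and 10.94 to 11.96 on the others. The GABAergic mean was 13.60, 13.98 and 13.98 on those arrays and 12.62 to 13.42 on the others. Of 6 endothelial and pericyte genes, 1 was lower in MS2, and Kdr was higher and Pdgfrb lower in MS5. Results of 1 counted member are not reported here.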

Additional observations from a re-analysis of the deposited data

Results flagged for a closer look

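Within groups of 5, a value was picked out when its gap to the next array, over the range of the group, passed Dixon's critical value for 5 values. Chance alone picks out about 5% of groups. Over the 129 member probes this held for 6 in Con, 28 in MS2 and 9 in MS5, and 26 of the 28 in MS2 were at replicate 4. Among the probes described in the report, MS2 replicate 4 was the highest of its group for Kcnj5 (9.59), Kcnip1 (11.15), Kcnk3 (10.71), Kcnh2 (9.86), Kcnh8 (9.29), Kcnk9 (7.14), Kcne4 (8.21) and the Kcnc1 probes A_52_P867058 (10.74) and A_52_P592305 (11.31), and the lowest for Kcnn2 (12.12), Kcnh3 (10.93), Kcng1 (9.03), Kcnip2 (8.64), Kcnv1 (8.62), Kcnmb4 (13.22), Kcnk12 (8.82) and the Kcng2 probe A_55_P2005335 (7.24). MS2 replicate 3 was the highest for the Kcnip3 probe A_55_P2371237 (7.24), MS5 replicate 8 for Kcnip2 (10.84) and Con replicate 19 for Kcne4 (7.03) and the main Kcnip3 probe (14.58).

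The MS5 against MS2 contrast had an unadjusted limma p under 0.05 for the Kcnip3 probe A_55_P2371237 (log2 fold change -0.24, lower in MS5) and for Gnb5 (0.24, higher in MS5). Neither passed the limma adjustment over all probes (adjusted p = 1 for each). With 1 array left out at a time, Gnb5 kept an unadjusted p under 0.05 in 4 of 10 fits and Kcnip3 in 10 of 10. The Kcnip3 difference was -0.14 without MS2 replicate 3, and the main Kcnip3 probe went the other way.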

How the results depend on the processing

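The cause of each change below was not tested unless stated. No adjusted p under 0.05 appeared for a member under any alternative. Shares over all probes are given above for the fits without MS2 replicate 4 or MS5 replicate 9. Below, a share is given for MS2 against Con without MS2 replicate 5. The other counts stand without that share, so a rise in them is not read as a result about the members. The count of members at an unadjusted p under 0.05 (3 in MS2 against Con, 2 in MS5 against Con, 1 in MS5 against MS2) became 9, 7 and 8 with array weights, 5, 5 and 3 with the slide as a term, and 1, 1 and 0 with 1 probe per gene or with the mean of a gene's probes, which test 90 genes. In MS5 against Con it was 1 over the 118 probes well above background, 6 with only the groups compared and 12 without MS2 replicate 4 and MS5 replicate 9, an alternative chosen after seeing the data. In MS5 against MS2 it was 2 with the processed signal, with offset 0 or with only the groups compared, and 11 without those arrays. Leaving out 1 array at a time gave 2 to 11, 2 to 8 and 1 to 5. In MS2 against Con it was 11 without the dim MS2 replicate 5 (6.58% of all probes then passed), 7 without Con replicate 15 or MS2 replicate 3, and 5 without Con replicate 18 or MS2 replicate 1. In MS5 against Con it was 8 without MS2 replicate 4, 5 without MS5 replicate 13, and 4 without Con replicate 15 or MS5 replicate 9. In MS5 against MS2 it was 5 without MS2 replicate 4, 4 without MS2 replicate 5 or 7 or MS5 replicate 13, 3 without MS2 replicate 1 or MS5 replicate 9 or 12, and 2 without MS5 replicate 14. Medians over the members moved by less than the spread between arrays, with single arrays left out to 0.006 to 0.034, 0.011 to 0.049 and -0.008 to 0.025.

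Values of single GIRK probes that turned sign or moved were as follows, as log2 fold changes. Array weights gave 0.14 (Kcnj3, first probe), 0.52 (Kcnj3, second probe, unadjusted p then under 0.05) and 0.07 (Kcnj6) in MS2 against Con, and -0.16, -0.47 and, for Kcnj5, 0.15 in MS5 against MS2. The mean of the Kcnj3 probes gave 0.11, 0.03 and -0.08 in the 3 comparisons. The processed signal gave 0.01 for the first Kcnj3 probe in MS5 against Con and 0.01 for Kcnj6 in MS5 against MS2. The slide term gave 0.04 (Kcnj3, first probe) and 0.01 (Kcnj6) in MS5 against Con, and 0.02 (Kcnj6) in MS5 against MS2. Within slides 1 and 2, MS5 against Con was -0.33 and 0.55 (Kcnj3, second probe) and -0.24 and 0.23 (Kcnj6), and MS5 against MS2 was -0.74 and 0.52 and -0.21 and 0.21 for the same probes, and 0.36 within slide 2 for the first Kcnj3 probe.

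Leaving out arrays moved the first Kcnj3 probe over -0.12 to 0.1, -0.1 to 0.04 and -0.18 to 0.1 in the 3 comparisons, Kcnj6 over -0.1 to 0.05, -0.13 to 0.01 and -0.09 to 0.03, the second Kcnj3 probe over -0.09 to 0.24 and Kcnj9 over -0.04 to 0.24 in MS5 against Con, and Kcnj9 over -0.36 to 0 and Kcnj5 over -0.18 to 0.21 in MS5 against MS2. Labels were given to the GIRK probes and, in each comparison, to the member and list probes named for it, not to every probe described. Over them 445 values counted as unchanged, 72 lost the threshold, 3 gained it, 49 turned sign and 16 moved by more than the spread between arrays. Within a slide there was no p. There, a probe that had not passed counted as unchanged when it moved by less than that spread, even if its sign turned. No paired or litter-matched analysis was possible, because the labels give no litters and the groups share no replicate numbers. Pups of a litter may not be independent, and this was not modelled.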
